A study of Rattus norvegicus with 9 samples.

Results

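Oxidative phosphorylation makes most of the ATP of a resting cell, and its machinery is built from genes of both the nucleus and the mitochondrial genome. The members described here are the genes that the annotation in the deposited count table places in the KEGG pathway of oxidative phosphorylation, without the subunits of the vacuolar proton pump. Of 149 genes with that pathway entry, 24 belong to the vacuolar pump, which left 125 members of 23026 genes in the table. The mitochondrial genome encodes 13 members and the nucleus 112. Members were chosen by their annotation and not by their measured values.

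RNA from the bone of female Sprague–Dawley rats was sequenced in 9 libraries, 3 per group. Rats were 8 weeks old at purchase and were kept for 1 week before surgery. Sham rats had a sham operation in which fat near the ovary was removed, and OVX rats had both ovaries removed, a model of bone loss after menopause. OVX-AS-IV-High rats were ovariectomized and, from 6 weeks after surgery, received the saponin astragaloside IV (AS-IV) at 80 mg/kg by gavage once daily for 8 weeks. Sham and OVX rats received the vehicle, sodium carboxymethyl cellulose (CMC-Na), over the same 8 weeks. The sample labels give 1% CMC-Na for the OVX libraries but 1%, 2% and 3% for Sham replicates 1, 2 and 3, whereas the paper's methods state 1% for all. The Sham libraries are treated here as 3 replicates of 1 group, and the part of the vehicle in their differences was not tested. Total counts per library ran from 34874880 to 35813432 in Sham (median 35725783), from 36260132 to 36840026 in OVX (median 36798504) and, with treatment, from 36340063 to 37298250 (median 37178255). Below, sets of 3 values stand in the order of replicates 1, 2 and 3.

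Electrons from NADH enter the respiratory chain at complex I and those from succinate at complex II. They pass through complex III and the small carrier cytochrome c to complex IV, which reduces oxygen, while complexes I, III and IV pump protons whose return through complex V drives the synthesis of ATP. Osteoclasts are rich in mitochondria, osteoblasts draw on both glycolysis and respiration, and skeletal muscle, which lies against bone, expresses its own isoforms of several subunits.

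Markers of bone and marrow cells were present in each library. All 11 osteoblast and osteocyte markers were tested, with Col1a1 as the most abundant and a summed level of 4808 to 18037 CPM (counts per 1000000 counts of the library). The 8 osteoclast markers, led by Ctsk, summed to 998 to 2660 CPM, and the 8 erythroid markers to 4613 to 7908 CPM. Neutrophil markers reached 11335 to 19472 CPM (8 of 8 in the table, 7 tested) and B-lineage markers 660 to 1244 CPM (7 of 8 in the table). Chondrocyte markers (6 of 6) ranged from 247 to 2876 CPM and adipocyte markers (9 of 9) from 526 to 1030.2 CPM. Of 5 brown adipocyte markers, 4 were in the table, and Ucp1, the uncoupling protein that defines brown fat, had 3 counts or fewer in each library.

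Skeletal muscle RNA was present in all 9 libraries. Of 22 muscle markers, 21 were in the table and none was at 0 in any library; Acta1 was the most abundant. Their summed level was 15266, 11231 and 2479 CPM in Sham, 5643, 3008 and 2539 CPM in OVX libraries and 7787, 3305 and 929 CPM in OVX-AS-IV-High libraries. The highest library, Sham replicate 1, lay 16.4 times above the lowest, OVX-AS-IV-High replicate 3, and within each group replicate 1 was highest and replicate 3 lowest. In bulk RNA, fewer cells of a type and less RNA per cell cannot be told apart, and this holds for each level given here.

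The 13 mitochondrial-genome genes took 6.37% (95% Wilson interval 6.36 to 6.38), 8.00% (7.99 to 8.01) and 3.56% (3.56 to 3.57) of all counts in Sham. Their share was 5.02% (5.01 to 5.02), 4.25% (4.24 to 4.26) and 4.16% (4.15 to 4.17) in OVX libraries and 5.19% (5.18 to 5.20), 4.66% (4.66 to 4.67) and 4.48% (4.47 to 4.48) in OVX-AS-IV-High libraries. The intervals cover counting error only and are far narrower than the differences between libraries. Sham held both the highest library (replicate 2) and the lowest (replicate 3), 2.25 times apart, and the OVX and treated libraries lay between them. Group means (± SD, n = 3) were 5.98% ± 2.25 for Sham, 4.48% ± 0.471 for OVX and 4.78% ± 0.371 for OVX-AS-IV-High.

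The 112 nuclear members together took far less of each library and varied far less. Their share was 0.851%, 0.892% and 0.856% in Sham libraries, 0.936%, 0.874% and 0.913% in OVX libraries and 0.890%, 0.827% and 0.852% in OVX-AS-IV-High libraries. OVX replicate 1 was highest and OVX-AS-IV-High replicate 2 lowest, 1.13 times apart, and the groups overlapped. Counts of mitochondrial origin outnumbered nuclear ones 7.49, 8.98 and 4.16 times in Sham libraries, 5.36, 4.86 and 4.56 times in OVX libraries and 5.83, 5.64 and 5.25 times in OVX-AS-IV-High libraries. Neither the labels nor the paper pairs the rats. OVX and OVX-AS-IV-High libraries of the same replicate number were set side by side as pairs by number only. This choice followed weak correlations seen in these same data (0.310, 0.158 and 0.130). For OVX-AS-IV-High with Sham, not paired here, they were 0.314, -0.158 and 0.435. Muscle markers fell from replicate 1 to 3 in each group, and their part in these correlations was not tested. Within all 3 pairs the nuclear share was lower in the treated library, and the mitochondrial share and the ratio of mitochondrial to nuclear counts were higher. With 3 pairs this was not tested. The muscle markers were higher in the treated library of pairs 1 and 2 and lower in that of pair 3. Osteoblast and osteocyte, osteoclast and B-lineage markers were lower in the treated library of all 3 pairs. B-lineage markers had 1159, 1244 and 1181 CPM in OVX libraries and 774, 924 and 1153 CPM in treated ones. Erythroid, neutrophil, chondrocyte, adipocyte and brown adipocyte markers went both ways across the pairs. The part of these cell types in the paired differences was not tested. On the FPKM scale, which corrects for gene length, the mitochondrial sum ranged from 37721 to 83372 and the nuclear sum from 9852 to 11105.

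**Figure D1:**
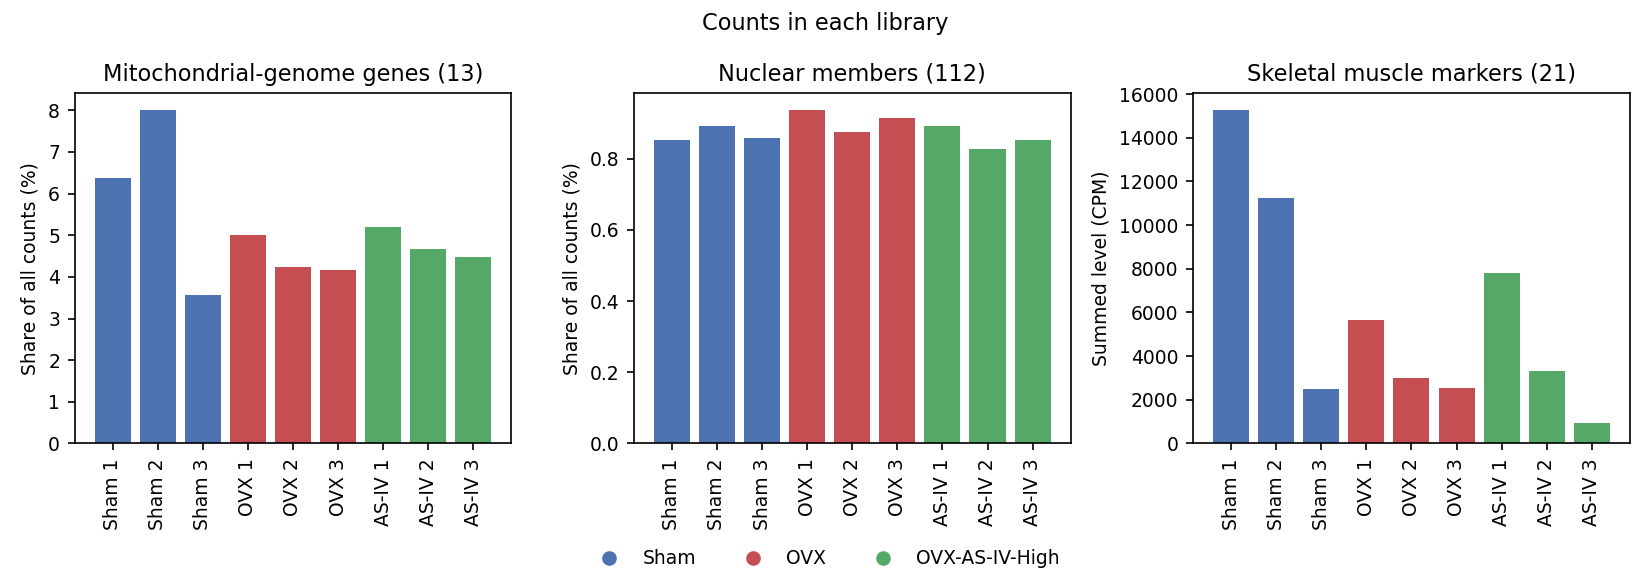
Share of all counts (percent) taken by the 13 mitochondrial-genome genes and by the 112 nuclear members, and summed level of 21 skeletal muscle markers (CPM), in each of 9 libraries, with bars coloured by group. The mitochondrial share runs from 3.56% to 8.00% and the nuclear share from 0.827% to 0.936%.

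The order of the libraries by mitochondrial share stood close to their order by muscle markers. From the highest share down, the order was Sham 2, Sham 1, OVX-AS-IV-High 1, OVX 1, OVX-AS-IV-High 2, OVX-AS-IV-High 3, OVX 2, OVX 3 and Sham 3. By muscle markers it was Sham 1, Sham 2, OVX-AS-IV-High 1, OVX 1, OVX-AS-IV-High 2, OVX 2, OVX 3, Sham 3 and OVX-AS-IV-High 3. The same 5 libraries led both orders, while OVX-AS-IV-High replicate 3, lowest in muscle markers, stood at place 6 of 9 in mitochondrial share. Other cell types also differed between libraries. Osteoclast markers summed to 998, 1401 and 2169 CPM in Sham libraries, 1417, 2493 and 2660 in OVX libraries and 1362, 2008 and 2587 in OVX-AS-IV-High libraries. The 4 libraries lowest in these markers are the 4 highest in mitochondrial share. Osteoblast and osteocyte markers summed to 4808, 6160 and 13590 CPM in Sham libraries, 11034, 18037 and 15183 in OVX libraries and 5279, 14486 and 9879 in OVX-AS-IV-High libraries. Their 3 lowest libraries are the 3 highest in mitochondrial share, and the same 3 are lowest in adipocyte markers (526, 530 and 695 CPM in Sham replicates 1 and 2 and OVX-AS-IV-High replicate 1) and in B-lineage markers (681, 660 and 774 CPM). So muscle is not the only cell type whose order can be set beside the share, and the part of each in the share was not tested. The muscle covariate used below entered the fits of single genes and not the share. The mitochondrial share was also computed over protein-coding genes alone, where its mean over the 9 libraries was 5.11% against 5.08%, and over the summed FPKM, where it was 8.93%.

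The mitochondrial genome supplies 7 subunits of complex I, 1 of complex III, 3 of complex IV and 2 of complex V. COX1, the catalytic subunit of complex IV that binds oxygen, had the highest mean FPKM of all members over the 9 libraries, although COX3 was higher in OVX replicate 1 and OVX-AS-IV-High replicates 2 and 3, and COX2 in OVX-AS-IV-High replicate 1. Its level was 12559, 17035 and 7465 FPKM in Sham libraries, 10097, 8857 and 8401 in OVX libraries and 10314, 8857 and 8956 in OVX-AS-IV-High libraries. Sham replicate 2 was highest and Sham replicate 3 lowest, and the libraries of OVX and of OVX-AS-IV-High overlapped between them. COX3, which steadies the core of complex IV, had a level of 11718 ± 4539 FPKM in Sham, 8953 ± 1197 in OVX and, for the treated group, 9316 ± 178 (SD, n = 3). ATP6, which forms the proton path of ATP synthase, had 10182 ± 3819.5 FPKM in Sham, 7657 ± 700.2 in OVX and, for the treated group, 8035 ± 292. In both genes the Sham spread spanned the levels of the other groups.

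COX2, the subunit that takes electrons from cytochrome c, had another order of libraries. Its level was 10171, 11444 and 6204 FPKM in Sham libraries, 7168, 7018 and 6952 in OVX libraries and 11186, 7787 and 6577 in OVX-AS-IV-High libraries. OVX-AS-IV-High replicate 1 stood second, just under Sham replicate 2, and COX2 made up 14.7% of the mitochondrial-genome counts there, against 9.77% to 11.9% in the other libraries. CYTB, the heme-bearing core subunit of complex III, had 4125 ± 1571 FPKM in Sham, 3133 ± 356 in OVX and, for the treated group, 3071 ± 164. Its share of the mitochondrial-genome counts stayed between 7.03% and 8.08%.

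The 7 complex I subunits, all in the proton-pumping membrane arm, lay lower than the complex IV subunits in FPKM. ND1 had 3678 ± 1435 FPKM in Sham, 2618 ± 570.1 in OVX and, for the treated group, 2742 ± 115, ND2 3102 ± 1355 FPKM in Sham, 2259 ± 333 in OVX and, for the treated group, 2562 ± 136, and ND4 2787 ± 1115 FPKM in Sham, 2075 ± 305 in OVX and, for the treated group, 2253 ± 190.5. ND5, at the far end of the arm, had 837 ± 367 FPKM in Sham, 594 ± 107 in OVX and, for the treated group, 703 ± 173. In these 4 genes Sham had the largest SD of the 3 groups, and Sham replicate 3 was the lowest library. ND3 was the steadiest mitochondrial gene, at 2309, 2369.7 and 1640.0 FPKM in Sham libraries, 1981, 2215 and 2293 in OVX libraries and 2192, 2215 and 1896 in OVX-AS-IV-High libraries. Its highest library was 1.44 times its lowest in CPM, and Sham replicate 3 was again the lowest.

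ND4L, a small subunit of the same arm, had the widest spread of the 13, 3.61 times between the highest and lowest libraries in CPM. Its level was 1979, 1646 and 631 FPKM in Sham libraries, 1191, 824 and 932 in OVX libraries and 2139.8, 2275 and 1013 in OVX-AS-IV-High libraries. OVX-AS-IV-High replicates 2 and 1 were the highest libraries and Sham replicate 3 the lowest, while OVX-AS-IV-High replicate 3 lay within the OVX range. Its part of the mitochondrial-genome counts was 0.923, 0.611 and 0.526% in Sham libraries, 0.705, 0.576 and 0.665% in OVX libraries and 1.22, 1.45 and 0.672% in OVX-AS-IV-High libraries. OVX-AS-IV-High replicates 1 and 2 again stood above the other 7 libraries by this share.

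ND6, the complex I subunit encoded on the opposite strand from the other 12 genes, had the lowest level, with 68 to 163 counts per library. Its level was 6.83, 4.25 and 3.67 FPKM in Sham libraries, 5.21, 5.18 and 5.34 in OVX libraries and 7.18, 8.45 and 4.77 in OVX-AS-IV-High libraries. Replicates 2 and 1 of OVX-AS-IV-High were the highest, and Sham replicates 3 and 2 the lowest. The labels describe strand-specific libraries, but whether the counting used the strand is not stated, so the level of ND6 is uncertain.

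ATP8, a small membrane subunit of ATP synthase whose gene overlaps that of ATP6, had 1290.1 ± 638 FPKM in Sham, 937 ± 162 in OVX and, for the treated group, 1088 ± 198. ND4L and ND4 overlap in the same way, so reads in the shared bases can be assigned to either gene of a pair and their separate levels are uncertain to that extent. Copies of mitochondrial DNA in the nuclear genome can also draw or give reads. COX1 made up 29.4% to 32.9% of the mitochondrial-genome counts over the 9 libraries, COX3 13.8% to 16.6% and ATP6 10.7% to 12.0%. So the total moved 2.25-fold while the part of each of these 3 genes stayed within a narrow range.

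**Figure D2:**
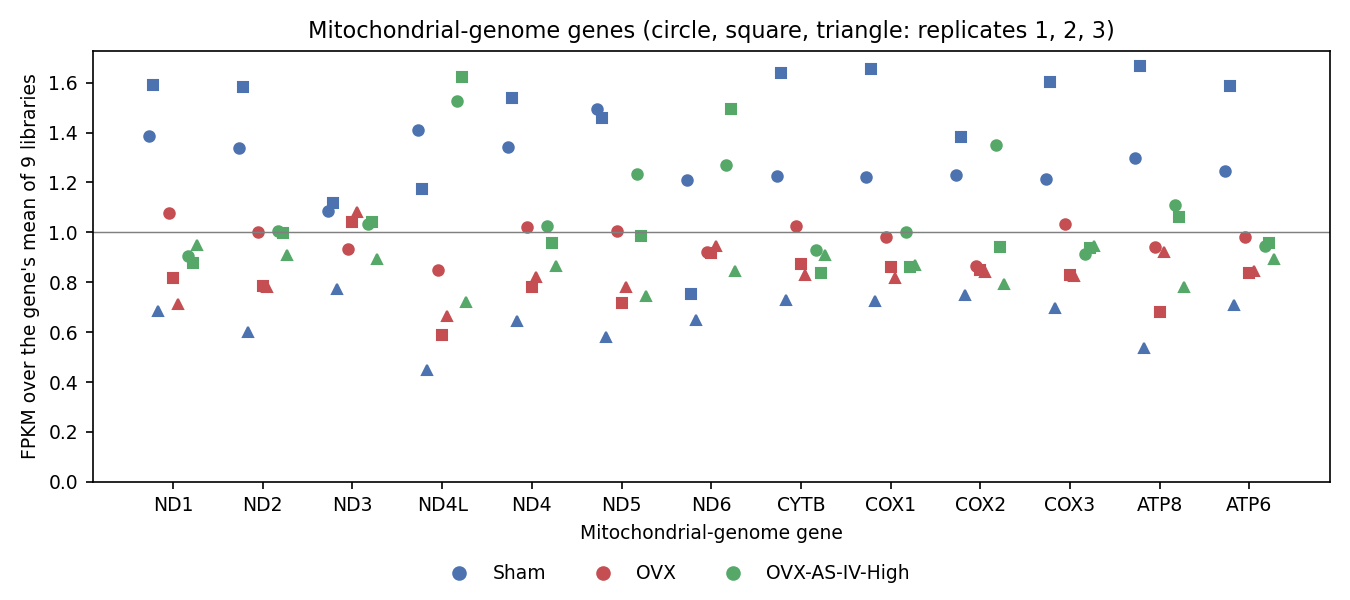
FPKM of each mitochondrial-genome gene divided by that gene's mean over the 9 libraries, by gene, with colour for the group and shape for the replicate. Sham replicate 3 is the lowest library in all 13 genes, and ND4L and ND6 are highest in OVX-AS-IV-High replicate 2.

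Nuclear members passed the filter on low counts in 97 of 112 cases and all 13 mitochondrial genes did, so 110 of the 16874 genes tested are members. The 15 untested members had at most 17 counts in any library; 13 of them carry LOC or RGD identifiers, and the others are Atp12a and Atp4a, which encode proton pumps of the plasma membrane rather than respiratory subunits. LOC and RGD entries, and symbols that end in l1 or l2, can be copies that share sequence with a parent gene, so reads can be assigned to either and their levels are uncertain. In FPKM, the median of the mean level over libraries was 83.5 for the 97 nuclear members, 2641 for the 13 mitochondrial genes and 5.40 for all 16874 genes tested.

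By complex, summed over its nuclear members, complex I ranged from 2765 to 3153 FPKM over the libraries (44 members, 41 tested). Complex II ranged from 278 to 325 FPKM (4 members), complex III from 825 to 917 (11, 9 tested), complex IV from 2902 to 3305 (21, 19 tested) and complex V from 2784 to 3143 (20, 16 tested). The mitochondrial genes of complex I summed to 7859 to 17687 FPKM, CYTB of complex III ranged from 2506 to 5642, those of complex IV from 20648 to 44505 and those of complex V from 6709 to 15539. So within each complex built by both genomes, the mitochondrial part varied by 2.16 to 2.32 times over the libraries and the nuclear part by 1.11 to 1.14 times. Complexes were assigned from the gene symbols, and Ndufa4, named as a complex I subunit but known to sit with complex IV, is counted under its name.

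**Figure D3:**
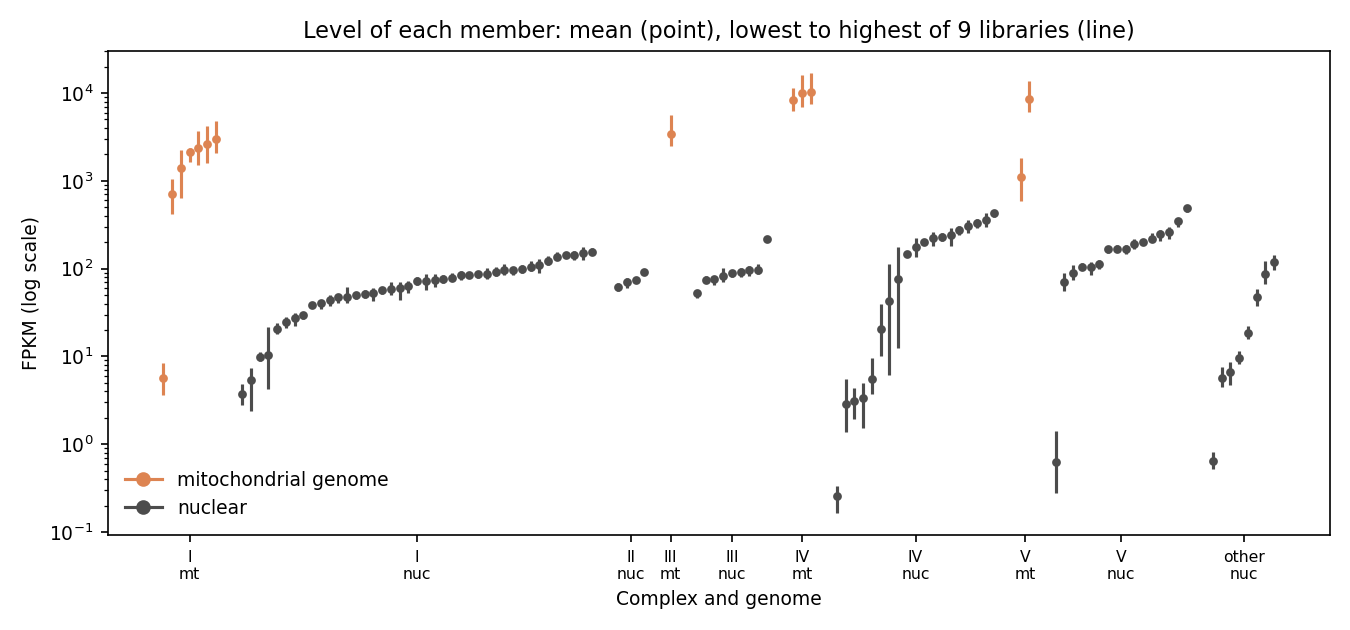
FPKM (log scale) of each tested member by complex and genome, with a point for the mean and a line from the lowest to the highest of 9 libraries; "other" holds cytochrome c, complex IV assembly genes and the remaining members. By their means, mitochondrial genes (orange), with ND6 as the exception, lie above the nuclear ones (dark), whose highest mean is 490.4 for Atp5f1b.

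The most abundant nuclear member of each complex was steady. Ndufb9, an accessory subunit of the complex I membrane arm, ranged from 142 to 171 FPKM with a mean of 154. Uqcrh, the hinge protein of complex III, ranged from 204 to 236 FPKM. Cox4i1, the common isoform of the regulatory subunit 4 of complex IV, ranged from 387 to 460.2 FPKM. In all 3 the groups overlapped. Atp5f1b, the catalytic beta subunit of ATP synthase and the most abundant nuclear member, ranged from 438 to 527 FPKM.

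Complex II, the only complex with no mitochondrial gene, also feeds the citric acid cycle. Sdha, its flavoprotein, which oxidizes succinate, ranged from 56.0 to 68.6 FPKM, and Sdhb, its iron–sulfur subunit, from 60.2 to 77.5 FPKM. Its membrane anchors Sdhc and Sdhd ranged from 68.8 to 80.1 FPKM and from 84.2 to 99.3 FPKM. No succinate dehydrogenase gene varied more than 1.29-fold in CPM over the 9 libraries.

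Other members outside the complexes were fewer and less even. Cycs, which encodes cytochrome c, had 91.3, 87.5 and 73.3 FPKM in Sham libraries, 90.6, 72.6 and 82.5 in OVX libraries and 123, 94.8 and 66.5 in OVX-AS-IV-High libraries. OVX-AS-IV-High replicate 1 was the highest library and OVX-AS-IV-High replicate 3 the lowest, so the treated group spanned the others. Cox17, a chaperone that carries copper to complex IV, ranged from 97.4 to 144 FPKM. Ppa1, a cytosolic pyrophosphatase that the pathway also lists, ranged from 37.1 to 58.6 FPKM.

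Over the 9 libraries, the highest value of a nuclear member was 1.30 times its lowest at the median (CPM), against 2.3 times for a mitochondrial gene and 1.75 times for the 16701 tested genes with counts in all libraries. More than 2-fold was spanned by 11 of 97 nuclear members (11.3%), by 11 of 13 mitochondrial genes and by 39.9% of all genes. Less than 1.5-fold was spanned by 74 nuclear members (76.3%) and by 32.6% of all genes. The narrowest nuclear member was Ndufb11 (1.12 times), a complex I subunit named after its value was seen, and the widest was Cox8b (18.4 times).

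Several subunits of complex IV exist as a general and a tissue isoform. Cox6a1 is the general and Cox6a2 the heart and skeletal muscle form of subunit 6a, which sits on the rim of the dimer. The level of Cox6a2 was 153, 178 and 24.0 FPKM in Sham libraries, 105, 34.0 and 31.9 in OVX libraries and 109, 39.2 and 12.4 in OVX-AS-IV-High libraries. Sham replicates 2 and 1 were highest, then replicate 1 of OVX-AS-IV-High and of OVX, and OVX-AS-IV-High replicate 3 was lowest. Cox6a1 was at 255, 283 and 355 FPKM in Sham libraries, 339.8, 316 and 325 in OVX libraries and 275, 305 and 328 in OVX-AS-IV-High libraries. The muscle form made up 37.6, 38.5 and 6.35% in Sham libraries, 23.6, 9.73 and 8.96% in OVX libraries and 28.5, 11.4 and 3.64% in OVX-AS-IV-High libraries of the FPKM of both forms. Within each group, replicate 3 was lowest by this share and at least 1 other library was more than 2 times higher.

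Cox8a and Cox8b are the general and the heart and muscle form of the small subunit 8. Cox8b had 77.0, 113 and 11.4 FPKM in Sham libraries, 52.0, 17.4 and 22.0 in OVX libraries and 71.4, 18.3 and 6.12 in OVX-AS-IV-High libraries, with counts from 71 to 1253. Its 4 highest libraries were the same 4 as for Cox6a2, and the groups overlapped. Cox8a ranged from 205 to 255 FPKM. Cox8b made up 27.3, 34.4 and 4.28% in Sham libraries, 19.0, 6.51 and 8.58% in OVX libraries and 24.2, 7.41 and 2.50% in OVX-AS-IV-High libraries of the FPKM of both. The 4 libraries highest in both muscle forms are also the 4 highest in muscle markers, whose values are given above.

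**Figure D4:**
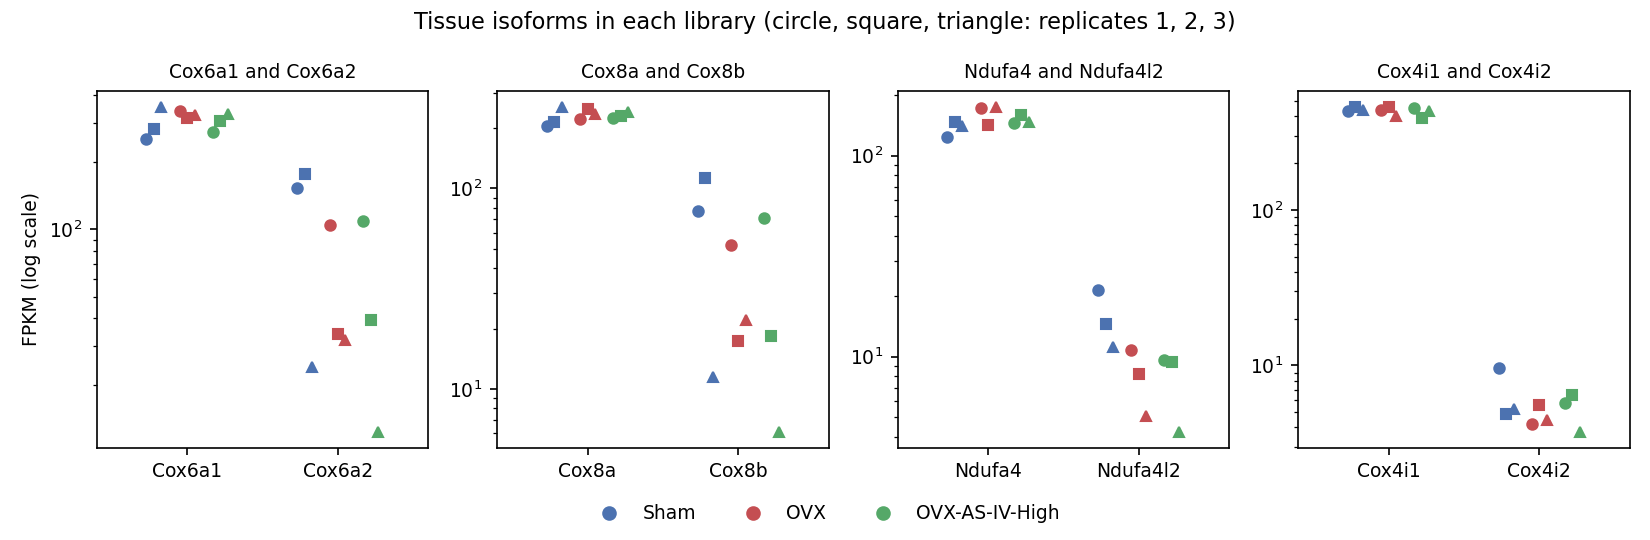
FPKM (log scale) of general and tissue isoforms in each library, coloured by group, with shape for the replicate. Cox6a2 and Cox8b span a wide range within each group, whereas Cox6a1 and Cox8a stay within 255 to 355 and 205 to 255 FPKM.

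The other isoform sets were less divided. Cox4i2, the form of subunit 4 known from lung and from low oxygen, made up 0.867% to 2.19% of the FPKM of both forms, with the highest share in Sham replicate 1. Cox6b2, the testis form of subunit 6b, made up 0.725% to 2.23% beside Cox6b1, which ranged from 193 to 218 FPKM. Cox7a1, the heart and muscle form of subunit 7a, was at only 13 to 27 counts per library and 0.101% to 0.246% of the FPKM it shared with Cox7a2. Unlike Cox6a2 and Cox8b, Cox7a1 had its lowest level in Sham replicate 2. Cox7b, which had no second form in the table, ranged from 182 to 288 FPKM, and neither Cox7b2 nor Cox8c was in the table.

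Atp5mc1, Atp5mc2 and Atp5mc3 encode the same mature ring subunit of ATP synthase with different import signals. At the median they made up 18.3%, 44.0% and 36.0% of their joint FPKM. The part of Atp5mc1 was highest in Sham replicates 2 and 1, at 22.6% and 21.9%, and lay between 16.7% and 19.7% in the other 7 libraries.

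Promoters of Cox8a, Cox8b and Cox6a2 are shown because the general and the muscle forms parted across the libraries. A promoter here is the stretch from 250 bases before to 50 bases after the start of transcription, from RefSeq on assembly GRCr8, which is not the build named by the submitters (mRatBN7.2), so genes were matched by name and identifier. Capitals mark motifs that were chosen after the values were seen and searched for on both strands. They are a site of NRF1 (GCGCATGC), of ETS factors such as the subunit made by Gabpa (CCGGAAG), of YY1 (AAGATGGC), of the estrogen-related receptors ERR (AAGGTCA) and the E-box of muscle factors (CAGCTG), and the MEF2 site by its name. A match describes letters, not binding.
Cox8a: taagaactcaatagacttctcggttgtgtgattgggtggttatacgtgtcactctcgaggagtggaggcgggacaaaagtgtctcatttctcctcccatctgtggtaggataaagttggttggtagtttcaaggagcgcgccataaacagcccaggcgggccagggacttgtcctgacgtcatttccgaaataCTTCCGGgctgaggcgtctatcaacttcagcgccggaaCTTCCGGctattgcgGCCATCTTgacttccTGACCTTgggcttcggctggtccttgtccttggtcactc
Cox8b: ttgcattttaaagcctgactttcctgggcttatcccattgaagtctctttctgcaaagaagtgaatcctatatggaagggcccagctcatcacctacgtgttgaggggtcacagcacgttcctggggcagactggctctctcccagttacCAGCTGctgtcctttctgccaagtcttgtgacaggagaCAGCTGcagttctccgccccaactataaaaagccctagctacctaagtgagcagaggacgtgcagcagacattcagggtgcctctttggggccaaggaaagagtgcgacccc
Cox6a2: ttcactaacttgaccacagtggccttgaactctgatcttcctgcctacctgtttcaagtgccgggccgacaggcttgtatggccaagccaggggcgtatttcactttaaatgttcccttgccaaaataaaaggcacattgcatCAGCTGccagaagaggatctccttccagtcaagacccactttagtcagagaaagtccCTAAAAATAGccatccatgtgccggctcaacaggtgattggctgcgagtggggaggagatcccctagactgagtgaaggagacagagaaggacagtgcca
The Cox8a promoter, at chr1:213833574-213833873 on the minus strand, holds ETS letters at 2 places, and those of YY1 and ERR at 1 place each. The Cox8b promoter, at chr1:205408224-205408523 on the minus strand, holds the E-box at 2 places. The Cox6a2 promoter, at chr1:192219667-192219966 on the minus strand, holds 1 E-box and 1 MEF2 site. The E-box is not limited to muscle forms: the promoter of Cox4i1, a general form, holds it too, beside ETS letters at 2 places.

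Promoters were found for 97 of the 112 nuclear members, of which 83 were among the tested ones. Among these 83, the NRF1 letters stood in 9 promoters (10.8%), against 2.47% of all 33469 promoters of the same length. ETS letters stood in 22 (26.5%, against 8.75%), YY1 letters in 17 (20.5%, against 3.17%) and ERR letters in 12 (14.5%, against 4.61%). The muscle E-box stood in 12 (14.5%, against 15.1%) and the MEF2 site in 1 (1.2%, against 0.565%), that of Cox6a2. The member set holds 1 promoter per gene and only genes tested here. The 33469 promoters also include genes not tested and can hold several starts of a gene, so the sets are unlike. These shares are descriptions and were not tested.

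Ovariectomized rats were compared with Sham rats to ask what ovariectomy does to bone. A gene was called at an unadjusted p under 0.05 in edgeR's test across all genes, with all 9 libraries in 1 fit, and its absolute log2 fold change (log2FC) was then held to the cut of 1 used in the paper's results and to the cut of 0.58 stated in its methods. The p-values measure the spread between these 9 libraries, which the paper describes as independent biological replicates. Of 97 nuclear members, 7 were higher in OVX, where 8.16% of all genes tested were, and 2 were lower, where 8.28% were. Past the cut of 1 were 0 of the 97, against 3.11% of all genes, and past the cut of 0.58 were 2, both lower (Ndufa4l2 and LOC100361008), against 6.96% of all genes. The libraries of the groups did not overlap in 23 of the 97 members, 21 higher and 2 lower in OVX, where 23.7% of all genes did not. Here and in the comparisons below, that share of all genes was not split by direction. The direction of the members thus has no share to be read against. The median log2FC of the 97 was 0.04 and that of all genes -0.01. With an adjusted p under 0.05, edgeR called 0 of the 110 members, as it called 0% of all genes, with 9 members at the unadjusted threshold, and DESeq2 also called 0 members but 834 of all genes.

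Counts of called nuclear members turned on single libraries. Without Sham replicate 1, 1 member was higher and 0 lower, where 5.38% and 6.82% of all genes were. Without OVX replicate 3, 1 was higher and 1 lower (5.22% and 5.33% of all genes), and without Sham replicate 3, 12 were higher and 5 lower (12.9% and 12.4% of all genes). The shares of all genes thus moved in the same sense. The median log2FC of the nuclear members stayed between 0.01 and 0.08 over the fits that left out 1 library.

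Complex I had 4 of its 41 tested nuclear members called higher in OVX than in Sham and 1 lower, beside 8.16% and 8.28% of all genes, against which the other complexes are also to be read. Ndufs5, an accessory subunit, had 56.9, 56.8 and 44.2 FPKM in Sham libraries, 70.2, 65.4 and 70.0 in OVX libraries and 64.5, 59.1 and 61.2 in OVX-AS-IV-High libraries. Each OVX library lay above each Sham library, and Sham replicate 3 was the lowest. It was higher in OVX than in Sham with a log2FC of 0.35 (SE 0.11, edgeR adjusted p 0.198, higher in 3 of 3 OVX libraries). The other 3, named after their values were seen, are Ndufb6, Ndufc2 and Ndufs8.

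Ndufa4l2, a relative of Ndufa4 that cells make at low oxygen, was the complex I entry called lower. Its level was 21.5, 14.5 and 11.2 FPKM in Sham libraries, 10.7, 8.24 and 5.07 in OVX libraries and 9.63, 9.36 and 4.24 in OVX-AS-IV-High libraries. All Sham libraries lay above all others, with Sham replicate 1 highest and replicate 3 lowest within each group. The log2FC in OVX vs Sham was -0.996 (SE 0.38, edgeR adjusted p 0.245), just short of the cut of 1. It was called no longer without Sham replicate 1 (-0.73), OVX replicate 2 (-1.004) or OVX replicate 3 (-0.76). With the muscle markers as a covariate it was -0.57, still called, and without the 3 libraries highest in muscle markers -0.50, not called. That last fit was chosen after seeing the data and keeps 1 Sham library, assumed to vary like the other groups. Ndufa4 itself, at 124 to 175 FPKM, made up between 85.3% and 97.2% of their joint FPKM; its log2FC of 0.22 was not called by edgeR, but it was without OVX replicate 2 (0.32) and by limma on log2(FPKM + 1) (0.24).

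Complex IV had 1 of 19 tested nuclear members higher and 1 lower in OVX vs Sham. Cox7a2, the general form of subunit 7a, had 135, 164 and 167 FPKM in Sham libraries, 203, 182 and 223 in OVX libraries and 176, 169 and 167 in OVX-AS-IV-High libraries. The OVX libraries all lay above the Sham libraries. Its log2FC was 0.36 (SE 0.12, edgeR adjusted p 0.209), and it was called no longer without Sham replicate 1 (0.25), OVX replicate 3 (0.27) or the 3 libraries highest in muscle markers (0.26). For OVX-AS-IV-High vs OVX it had -0.21, not called, but called lower by limma on log2(FPKM + 1) (-0.24) and without OVX replicate 2 (-0.30). LOC100361008, annotated as like subunit 5A, had 39.4, 28.7 and 19.7 FPKM in Sham libraries, 18.8, 21.7 and 10.00 in OVX libraries and 16.5, 19.7 and 11.6 in OVX-AS-IV-High libraries. Sham replicate 1 was highest and OVX replicate 3 lowest, and the groups overlapped, since OVX replicate 2 stood above Sham replicate 3. Its log2FC was -0.82 (SE 0.33, edgeR adjusted p 0.268), and without Sham replicate 1, Sham replicate 2 or OVX replicate 3 it was -0.58, -0.81 and -0.56, each no longer called. With the muscle covariate it was -0.48 and without the 3 libraries highest in muscle markers -0.25, neither called.

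In complex V, 2 of 16 tested nuclear members were higher and 0 lower in OVX vs Sham. Atp5pf, a peripheral stalk subunit, had 56.2, 62.3 and 67.5 FPKM in Sham libraries, 78.0, 70.8 and 88.2 in OVX libraries and 66.4, 74.4 and 75.4 in OVX-AS-IV-High libraries. All OVX libraries lay above all Sham libraries, with OVX replicate 3 highest. Its log2FC was 0.32 (SE 0.12, edgeR adjusted p 0.227), and it was called no longer without Sham replicate 1 (0.24), OVX replicate 3 (0.23) or the 3 libraries highest in muscle markers (0.21). The other, named after its values were seen, is Atp5f1c, the central stalk subunit. Atp5mc1 had a log2FC of -0.26 and was not called with all libraries, but was called lower without Sham replicate 3 (-0.35) or OVX-AS-IV-High replicate 1 (-0.26) and with only the groups compared (-0.26). For OVX-AS-IV-High vs Sham its value was -0.28, also not called. There it was called lower by limma on log2(FPKM + 1) (-0.28) and log2(FPKM + 0.1) (-0.29), with the replicate block (-0.28) and without Sham replicate 3 (-0.37) or OVX-AS-IV-High replicate 1 (-0.40). Its values were -0.15 in both comparisons with the muscle covariate, and without the 3 libraries highest in muscle markers -0.04 and -0.17, none called.

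In complexes II and III, 0 of 4 and 0 of 9 tested nuclear members were called in OVX vs Sham by edgeR at the unadjusted threshold, with medians of 0.04 and 0.00. Cox6a2 and Cox8b had log2FC values of -1.08 (SE 0.87) and -1.17 (SE 0.94) and were not called. With the muscle markers as a covariate, the Cox6a2 value was 0.36 and the Cox8b value 0.46. Without the 3 libraries highest in muscle markers, Cox6a2 stood at 1.23 and Cox8b at 1.40, again not called.

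None of the 13 mitochondrial genes was called in OVX vs Sham (0 by edgeR at the unadjusted threshold, 0 by DESeq2 and 0 by limma), none passed either cut, and in none did the groups separate. Their median log2FC was -0.45, with 11 of 13 below 0 (8573 of all 16874 genes were) and a range from -0.55 for ND4L to 0.07 for ND6. Without Sham replicate 3, 11 of 13 were called lower in OVX, where 12.4% of all genes were, and the median was -0.73; without Sham replicate 2, 0 were called and the median was -0.14. Without OVX replicate 1, ND1 alone was called lower (-0.71). So the difference of the mitochondrial genes between OVX and Sham rested on which Sham libraries were in the fit.

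**Figure D5:**
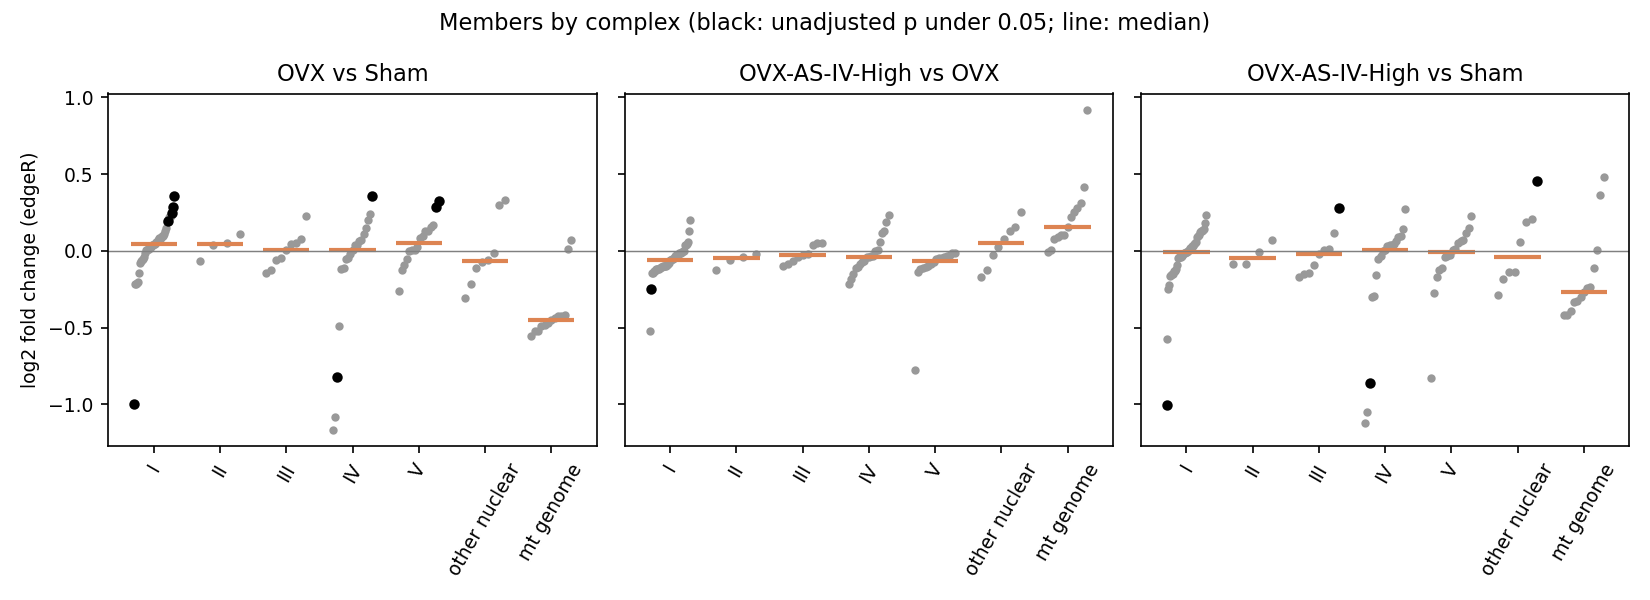
Log2 fold change (edgeR) of each tested member by complex in each comparison, with black points for an unadjusted p under 0.05, grey points for the others and an orange line at the median. Medians of the nuclear complexes lie near 0, and those of the mitochondrial genes at -0.45, 0.15 and -0.27.

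With the summed muscle markers as a covariate, the median log2FC of the mitochondrial genes was -0.12 in OVX vs Sham, with 0 called by edgeR at the unadjusted threshold. Without the 3 libraries highest in muscle markers (Sham replicates 1 and 2 and OVX-AS-IV-High replicate 1), a choice made after seeing the data, the median was 0.38. That fit leaves Sham with replicate 3 alone, which is assumed to vary like the other groups, and replicate 3 is the library lowest in mitochondrial share.

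Treated and untreated ovariectomized rats were compared to ask what AS-IV changes. This comparison and the one above share the OVX libraries, and the one below shares libraries with both. Of 97 nuclear members, 0 were called higher with treatment by edgeR (4.42% of all genes were) and 1 lower (2.03% of all genes), with the same counts by DESeq2. The log2FC passed the cut of 1 in 0 members (0.830% of all genes) and the cut of 0.58 in 0 (2.19% of all genes). The groups did not overlap in 12 of the 97 nuclear members, all lower in OVX-AS-IV-High, where 13.8% of all genes did not, in either direction. With an adjusted p under 0.05, edgeR called 0 of the 110 members and 0% of all genes, and DESeq2 called 0 members and 37 of all genes; 1 member was at the unadjusted threshold in edgeR and 2 in DESeq2. The median log2FC of the nuclear members was -0.05 and that of all genes -0.02, with 76 of 97 members and 8992 of all 16874 genes below 0.

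The nuclear member called lower is Ndufa2, an accessory subunit of complex I. Its level was 61.6, 58.4 and 52.6 FPKM in Sham libraries, 69.6, 61.4 and 61.3 in OVX libraries and 53.8, 53.8 and 50.3 in OVX-AS-IV-High libraries. Each OVX-AS-IV-High library lay below each OVX library, while Sham overlapped with both. It fell by 0.25 on the log2 scale (SE 0.10, edgeR adjusted p 0.724, lower in 3 of 3 treated libraries) and was called no longer without OVX replicate 1 (-0.18) or OVX-AS-IV-High replicate 3 (-0.21). Leaving out OVX replicate 2 or OVX-AS-IV-High replicate 2 gave 2 members called lower, where 1.30% of all genes were in either fit. Leaving out OVX replicate 1 gave 0 lower (1.82% of all genes), and leaving out OVX-AS-IV-High replicate 3 gave 1 higher and 0 lower (5.85% and 2.47% of all genes).

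Ndufa10l1, a copy of the complex I gene Ndufa10, had 6.23, 4.42 and 7.46 FPKM in Sham libraries, 5.75, 6.32 and 5.67 in OVX libraries and 4.39, 5.25 and 2.40 in OVX-AS-IV-High libraries. OVX-AS-IV-High replicate 3 was lowest of all libraries, and the treated libraries lay below those of OVX. Its log2FC for OVX-AS-IV-High vs OVX was -0.52 (SE 0.29), not called except without OVX-AS-IV-High replicate 2 (-0.76). The log2FC of Cycs was 0.25, not called, but it was called without OVX-AS-IV-High replicate 3 (0.46) and with the muscle covariate (0.27). Ndufc1, an accessory subunit of complex I, had 54.7, 52.5 and 44.3 FPKM in Sham libraries, 42.7, 43.6 and 46.4 in OVX libraries and 61.5, 47.0 and 40.4 in OVX-AS-IV-High libraries. OVX-AS-IV-High replicate 1 was highest and replicate 3 of that group lowest, and its log2FC of 0.20 was not called.

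Of the mitochondrial genes, 0 of 13 were called by edgeR for OVX-AS-IV-High vs OVX at the unadjusted threshold, 1 by DESeq2 and 0 by limma, and 0 had groups that did not overlap. Their median log2FC was 0.15, with 12 of 13 above 0, as were 7882 of all 16874 genes. ND4L had the largest value, 0.92 (SE 0.42, edgeR adjusted p 0.779), and was the gene called by DESeq2 (0.94). With the replicate number as a block, a matching that the labels do not give, ND4L was called too (0.80, or 0.85 in these groups alone). The same held with only the groups compared (0.93) and with no filter (0.94). It was also called without Sham replicate 1 (0.93), Sham replicate 3 (0.92) or OVX-AS-IV-High replicate 3 (1.21). The mitochondrial median was 0.29 without OVX replicate 1 and 0.07 without OVX replicate 2. With the muscle covariate the median was 0.24, and COX2 (0.35), ND4L (1.004) and ND5 (0.38) were called higher in the treated group, as were 6.60% of all genes. ND4L passed the cut of 1 there, with an edgeR adjusted p of 0.160. Its level in OVX-AS-IV-High replicate 3 lay within the OVX range, and its reads can be shared with ND4.

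Treated and Sham rats were compared to ask how far treated animals stood from intact ones. Of 97 nuclear members, 2 were called higher with treatment (9.17% of all genes were) and 2 lower (8.48% of all genes), of which 1 passed the cut of 1 (3.15% of all genes) and 2 the cut of 0.58 (6.92% of all genes). The groups did not overlap in 8 nuclear members, 4 in each direction, where 19.8% of all genes did not. The median log2FC was -0.01 for the nuclear members and -0.01 for all genes. With an adjusted p under 0.05, edgeR called 0 of the 110 members and 0% of all genes, with 4 members at the unadjusted threshold, and DESeq2 called 0 members and 1009 of all genes. Nuclear members called were 1 higher and 0 lower without Sham replicate 1 (7.84% and 6.23% of all genes). They were 3 and 6 without Sham replicate 3 (11.7% and 11.6%), and 1 and 10 without OVX-AS-IV-High replicate 1 (9.87% and 11.4%).

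The members called higher were Cox11 and Uqcrc2. Cox11, which inserts copper into COX1, had 4.75, 5.52 and 6.13 FPKM in Sham libraries, 7.02, 7.28 and 6.30 in OVX libraries and 6.74, 8.70 and 6.94 in OVX-AS-IV-High libraries. The treated libraries all lay above those of Sham, with OVX-AS-IV-High replicate 2 highest. It was higher than in Sham by a log2FC of 0.45 (SE 0.15, edgeR adjusted p 0.172), and was called no longer without OVX-AS-IV-High replicate 2 (0.33) or the 3 libraries highest in muscle markers (0.36). Uqcrc2, a core protein of complex III, had 73.9, 73.8 and 70.2 FPKM in Sham libraries, 88.5, 83.8 and 86.8 in OVX libraries and 101, 80.4 and 80.0 in OVX-AS-IV-High libraries. The libraries of OVX and of OVX-AS-IV-High all lay above those of Sham, and OVX-AS-IV-High replicate 1 was highest. Its log2FC was 0.28 (SE 0.11, edgeR adjusted p 0.254). The call was lost without Sham replicate 1 (0.28), Sham replicate 3 (0.25), OVX replicate 3 (0.28) or OVX-AS-IV-High replicate 1 (0.14), with only the groups compared (0.29) and without the 3 libraries highest in muscle markers (0.20). In OVX vs Sham, Uqcrc2 had 0.22, not called, but called with the muscle covariate (0.30), by limma on log2(FPKM + 1) (0.25), with only the groups compared (0.22), without OVX-AS-IV-High replicate 1 (0.22) and without the 3 libraries highest in muscle markers (0.28).

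The members called lower were Ndufa4l2 and LOC100361008, whose values in each library are given above. Ndufa4l2 passed the cut of 1 with a log2FC of -1.003 (SE 0.38, edgeR adjusted p 0.224, lower in 3 of 3 treated libraries). It was called no longer without Sham replicate 1 (-0.73) or OVX-AS-IV-High replicate 3 (-0.70), with the muscle covariate (-0.51) or without the 3 libraries highest in muscle markers (-0.70); with RLE size factors it fell just short of that cut here and passed it in OVX vs Sham. No nuclear member passed the cut of 1 in this comparison with DESeq2, limma on log2(FPKM + 1), no filter or only the groups compared. LOC100361008 had a log2FC of -0.86 (SE 0.33, edgeR adjusted p 0.233). It was called no longer without Sham replicate 1 (-0.60), Sham replicate 2 (-0.85), OVX-AS-IV-High replicate 1 (-0.90) or OVX-AS-IV-High replicate 3 (-0.67), with the muscle covariate (-0.45) or without the 3 libraries highest in muscle markers (-0.32). Cox6a2 (-1.12) and Cox8b (-1.05) were not called, but both were without OVX-AS-IV-High replicate 1 (-2.20 and -2.46), and Cox6a2 with the replicate block (-1.28); with the muscle covariate they were 0.31 and 0.38, not called.

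Among the mitochondrial genes, 0 of 13 were called for OVX-AS-IV-High vs Sham by edgeR at the unadjusted threshold, 0 by DESeq2 and 0 by limma, and in 0 did the groups separate. The median log2FC was -0.27, with 10 of 13 below 0, as were 8701 of all 16874 genes. Without Sham replicate 3, 9 were called lower, where 11.6% of all genes were, and the median was -0.58; without Sham replicate 2, 0 were called and the median was near 0 (-0.00). ND6 was called higher in the treated group without Sham replicate 1 (0.78) or OVX-AS-IV-High replicate 3 (0.69). With the muscle covariate the median was 0.17, and ND4L (1.12, edgeR adjusted p 0.052) and ND6 (0.80, edgeR adjusted p 0.201) were called higher (9.74% of all genes were). ND4L passed the cut of 1 in that fit. Without the 3 libraries highest in muscle markers the median was 0.44, with Sham replicate 3, the library lowest in mitochondrial share, as the lone Sham library.

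Genes around the pathway were read from lists, given here as counts called at the unadjusted threshold by edgeR in OVX vs Sham, OVX-AS-IV-High vs OVX and OVX-AS-IV-High vs Sham, beside the shares of all genes above. Of 19 regulators of mitochondrial gene expression, 1 was higher and 2 lower, then 0 and 0, then 2 and 1, with median log2FC values of -0.02, -0.04 and -0.02. Their summed level lay between 540 and 584 CPM, with Nrf1 as the most abundant. Ssbp1, which coats single-stranded mitochondrial DNA, had 13.2, 12.7 and 13.6 CPM in Sham libraries, 19.2, 18.8 and 20.6 in OVX libraries and 14.0, 16.6 and 18.5 in OVX-AS-IV-High libraries. All OVX and treated libraries lay above all Sham libraries. Its log2FC in OVX vs Sham was 0.54 (SE 0.12, edgeR adjusted p 0.140), called in each fit that left out 1 library. Ssbp1 was also called higher for OVX-AS-IV-High vs Sham. That call was lost without Sham replicate 1 (0.31) or 2 (0.31), or OVX-AS-IV-High replicate 2 (0.31) or 3 (0.23). It was lost too with the muscle covariate (0.21) and with only the groups compared (0.34). For OVX-AS-IV-High vs OVX Ssbp1 was not called, but both limma fits (-0.25 and -0.26) called it lower. So did the muscle covariate (-0.25) and the fit without OVX-AS-IV-High replicate 3 (-0.31).

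Pprc1, a coactivator related to PGC-1 alpha, had 50.4, 42.5 and 41.9 CPM in Sham libraries, 36.3, 31.7 and 38.2 in OVX libraries and 29.7, 33.4 and 38.3 in OVX-AS-IV-High libraries. The Sham libraries lay above all others. Its log2FC was -0.37 in OVX vs Sham, called no longer without OVX replicate 2 (-0.28), and -0.40 for OVX-AS-IV-High vs Sham. Both calls were lost without the 3 libraries highest in muscle markers (-0.26 and -0.22). Gabpa, the DNA-binding part of an ETS factor of respiratory genes, had a log2FC of 0.44 for OVX-AS-IV-High vs Sham (SE 0.13), and without the 3 libraries highest in muscle markers it was 0.15, not called. In OVX-AS-IV-High vs OVX it was 0.28, not called, but called without Sham replicate 3 (0.28) or OVX-AS-IV-High replicate 3 (0.37) and with only the groups compared (0.28).

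Of 42 assembly factors, 40 were tested: 3 were higher and 1 lower in OVX vs Sham, 1 and 0 for OVX-AS-IV-High vs OVX, then 3 and 1 for OVX-AS-IV-High vs Sham, with medians of -0.00, -0.05 and -0.03. Cmc1, which helps to build the COX1 module of complex IV, had 7.68, 8.26 and 7.75 CPM in Sham libraries, 15.7, 14.0 and 13.3 in OVX libraries and 9.25, 12.2 and 12.0 in OVX-AS-IV-High libraries. Each OVX and treated library lay above each Sham library, and OVX was highest. Its log2FC was 0.83 in OVX vs Sham (SE 0.15, edgeR adjusted p 0.118), -0.33 for OVX-AS-IV-High vs OVX, not called, and 0.50 for OVX-AS-IV-High vs Sham. The middle value was called by DESeq2 (-0.32), by limma on log2(FPKM + 1) (-0.30), with the muscle covariate (-0.34) and without OVX-AS-IV-High replicate 2 (-0.40). Ndufaf4, an assembly factor of complex I, had 20.6, 16.7 and 20.2 CPM in Sham libraries, 18.3, 19.4 and 20.5 in OVX libraries and 25.6, 25.7 and 23.7 in OVX-AS-IV-High libraries. The treated libraries lay above all others. Its log2FC was 0.40 for OVX-AS-IV-High vs OVX (SE 0.11, edgeR adjusted p 0.652). Atpaf1, which helps to assemble the catalytic head of ATP synthase, had a log2FC of 0.50 in OVX vs Sham, called no longer without Sham replicate 1 (0.39). For OVX-AS-IV-High vs Sham it had 0.37, not called, but called higher in 6 other fits, among them DESeq2 (0.38) and the replicate block (0.36).

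Mitochondrial ribosomes translate the 13 mitochondrial messages. Of 75 genes of that ribosome, 74 were tested: 5 were higher and 5 lower in OVX vs Sham, 1 and 3 for OVX-AS-IV-High vs OVX, then 1 and 9 for OVX-AS-IV-High vs Sham, with medians of 0.07, -0.10 and -0.05. Mrpl38, of the large subunit, had 20.9, 19.7 and 21.0 CPM in Sham libraries, 15.6, 15.6 and 14.9 in OVX libraries and 14.1, 12.7 and 14.8 in OVX-AS-IV-High libraries. The Sham libraries all lay above the others. Its log2FC was -0.45 in OVX vs Sham (SE 0.10, edgeR adjusted p 0.149) and -0.56 in the comparison of OVX-AS-IV-High with Sham. Mrpl30, also of the large subunit, had a log2FC of 0.57 in OVX vs Sham and -0.42 for OVX-AS-IV-High vs OVX. The first was called no longer without the 3 libraries highest in muscle markers (0.28), and the second without OVX replicate 2 (-0.38), OVX replicate 3 (-0.41) or OVX-AS-IV-High replicate 1 (-0.32). Mrpl12, which also binds the mitochondrial RNA polymerase, had a log2FC of -0.40 for OVX-AS-IV-High vs Sham. Mrpl54 was called lower for OVX-AS-IV-High vs OVX, but not with RLE size factors (-0.18), no filter (-0.18) or only the groups compared (-0.19). Its call was also lost without OVX replicate 1 (-0.18), 2 (-0.21) or 3 (-0.19) and in other fits.

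Of 18 genes of the citric acid cycle and pyruvate dehydrogenase, 1 was higher and 2 lower in OVX vs Sham, 1 and 1 for OVX-AS-IV-High vs OVX, then 1 and 2 for OVX-AS-IV-High vs Sham, with medians of -0.00, -0.06 and -0.04. Ogdh, a subunit of 2-oxoglutarate dehydrogenase, had a log2FC of -0.31 for OVX-AS-IV-High vs Sham (SE 0.10, edgeR adjusted p 0.158). Dld, the subunit that several dehydrogenases share, had 112, 108 and 108 CPM in Sham libraries, 112, 103 and 109 in OVX libraries and 151, 142 and 108 in OVX-AS-IV-High libraries. OVX-AS-IV-High replicates 1 and 2 stood above all other libraries, and replicate 3 lay among them. The log2FC of Dld for OVX-AS-IV-High vs OVX was 0.35, called no longer without OVX replicate 2 (0.30), OVX-AS-IV-High replicate 1 (0.23), OVX-AS-IV-High replicate 2 (0.30) or the 3 libraries highest in muscle markers (0.24).

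Glycolysis makes ATP without oxygen. Of its 19 listed genes, 3 were higher and 1 lower in OVX vs Sham, 0 and 0 for OVX-AS-IV-High vs OVX (0 also past an adjusted p under 0.05 in edgeR), then 3 and 0 for OVX-AS-IV-High vs Sham, with medians of -0.10, -0.05 and -0.05. Eno1, an enolase, had 352, 348 and 383 CPM in Sham libraries, 484, 511 and 499 in OVX libraries and 416, 463 and 495 in OVX-AS-IV-High libraries. All OVX and treated libraries lay above all Sham libraries. Its log2FC was 0.44 in OVX vs Sham (SE 0.09, edgeR adjusted p 0.138) and 0.35 for OVX-AS-IV-High vs Sham, both called in each fit that left out 1 library.

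The other glycolysis genes called higher in OVX vs Sham were less stable. Hk2, a hexokinase, had 394, 391 and 369 counts in Sham libraries, 563, 520 and 479 in OVX libraries and 421, 586 and 578 in OVX-AS-IV-High libraries. In CPM, the OVX libraries all lay above those of Sham, as did the treated ones, with OVX-AS-IV-High replicate 1 close to the highest Sham library. The log2FC of Hk2 in OVX vs Sham was 0.36 (SE 0.15, edgeR adjusted p 0.284). It was called no longer without Sham replicate 1 (0.35), 2 (0.41) or 3 (0.33), without OVX replicate 1 (0.29) or 2 (0.38), with the replicate block (0.37) or with the muscle covariate (0.32). Pfkp, a phosphofructokinase, had a log2FC of 0.23 in OVX vs Sham and lost its call without Sham replicate 1 (0.25) or 2 (0.18), without OVX replicate 1 (0.25), 2 (0.20) or 3 (0.24), with the block (0.23), with the covariate (0.17) and with limma on log2(FPKM + 1) (0.22).

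Of 13 carriers and uncouplers, 12 were in the table and 10 tested; 0, 1 and 0 were called in the same 3 comparisons, with medians of 0.01, -0.04 and -0.10. The gene called, past the cut of 1 too, is Ucp3, an uncoupling protein known from muscle, which had 8.94, 6.28 and 3.58 CPM in Sham libraries, 5.54, 11.6 and 4.40 in OVX libraries and 4.58, 1.86 and 3.36 in OVX-AS-IV-High libraries. OVX replicate 2 was highest and OVX-AS-IV-High replicate 2 lowest, and the treated libraries overlapped with the OVX ones. It was lower with treatment than in OVX, by a log2FC of -1.09 (SE 0.47, edgeR adjusted p 0.769). It was called no longer without Sham replicate 2 (-1.09), OVX replicate 2 (-0.58), OVX-AS-IV-High replicate 2 (-0.80) or OVX-AS-IV-High replicate 3 (-1.10). The call was also lost with the replicate number as a block, in all groups (-1.04) or in OVX and the treated group alone (-1.02), and with limma on log2(FPKM + 1) (-0.72). With the muscle covariate the value was -1.04, still called, as it also was without the 3 libraries highest in muscle markers.

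Neither count of 0 for the carriers, both against Sham, held in each fit. Ucp3 was called lower for OVX-AS-IV-High vs Sham without Sham replicate 3 (-1.20) or OVX-AS-IV-High replicate 1 (-1.26), both past the cut of 1. Vdac1, a channel of the outer mitochondrial membrane, had 147, 126 and 96.9 CPM in Sham libraries, 102, 90.3 and 90.1 in OVX libraries and 122, 81.6 and 82.9 in OVX-AS-IV-High libraries. Its log2FC was -0.41 in OVX vs Sham (SE 0.19, edgeR adjusted p 0.320) and -0.36 for OVX-AS-IV-High vs Sham. The first was called by DESeq2 (-0.42), with no filter (-0.41), with only the groups compared (-0.41), with the replicate block (-0.39) and without Sham replicate 3 (-0.55) or OVX-AS-IV-High replicate 1 (-0.41). The second was called with the block (-0.37) and without Sham replicate 3 (-0.50) or OVX-AS-IV-High replicate 1 (-0.58). Slc25a5, a carrier that exchanges ADP for ATP, had 133, 173 and 256 CPM in Sham libraries, 249, 273 and 278 in OVX libraries and 178, 255 and 282 in OVX-AS-IV-High libraries. Its log2FC was 0.48 in OVX vs Sham (SE 0.24, edgeR adjusted p 0.339) and 0.35 for OVX-AS-IV-High vs Sham. The first was called by DESeq2 (0.48), by limma on log2(FPKM + 1) and log2(FPKM + 0.1) (0.56 in both), with the block (0.53) and without Sham replicate 3 (0.77). The second was called with the block (0.38) and without Sham replicate 3 (0.65). The 3 libraries highest in muscle markers were the 3 highest in Vdac1 and the 3 lowest in Slc25a5. Under the muscle covariate the values were -0.19 and -0.09 for Vdac1 and 0.25 and 0.04 for Slc25a5, none called. Without those 3 libraries they were -0.06 and -0.23 for Vdac1 and 0.04 and 0.08 for Slc25a5, none called.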

How the data were processed

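RNA from rat bone was measured in 9 libraries, 3 per group. By the paper's methods, the authors filtered reads with NGS QC Toolkit, mapped them by Tophat with Bowtie2, and used eXpress on Bowtie2 alignments for gene levels. The build, mRatBN7.2, is named in the submitters' processing notes. Both tables were deposited by the authors: raw counts as whole numbers, and deposited FPKM, which are the counts rescaled by gene length and library total: both tables imply the same length within 1% in 11928 of 11928 genes that reach 100 counts in every library. How eXpress estimates became whole counts is not stated.

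Tests of the counts used edgeR 4.0.16 (quasi-likelihood F test; R 4.3.3). Libraries were scaled by TMM, genes of low count were removed by filterByExpr with its minimum of 10, and the model held 3 groups in 1 fit of 9 libraries, with Benjamini-Hochberg adjustment over the 16874 genes tested. The test was run on simulated counts drawn independently for each gene and library. Those counts lacked the muscle differences between these libraries, so the run does not measure how the test behaves under them. CPM are counts per 1000000 counts of a library, and FPKM sums and shares were computed from the deposited values with Python 3.11.15 and pandas 2.3.3; plots used matplotlib 3.10.9. Depth was 34874880 to 37298250 counts per library, so counting error is small beside the spread between libraries except at a few counts.

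The members and lists were chosen with earlier results of these data known, so no list is tested. Named genes are all mitochondrial-genome members, the most abundant nuclear member of each complex, the isoform sets, the succinate dehydrogenase genes, members past an absolute log2FC of 1 (the cut in the paper's results; its methods state 0.58), the 3 nuclear members with the smallest p per comparison and direction, and the 2 genes with the smallest p per comparison in each other list; names outside this rule are said to be so.

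Alternatives were RLE size factors, DESeq2 1.42.0, limma 3.58.1 on log2(FPKM + 1) and log2(FPKM + 0.1), no filter, only the groups compared, library sizes without mitochondrial-genome genes, the replicate number as a block, summed muscle markers as a covariate, each library left out in turn and, for the mitochondrial share, protein-coding genes only, no counts of the 10 most abundant other genes and FPKM. Chosen after seeing the data were a fit without the 3 libraries highest in muscle markers and a block fit of OVX and OVX-AS-IV-High alone. Neither the labels nor the paper pairs libraries by replicate number. Correlations of deviations from group means were 0.310, 0.158 and 0.130 for OVX with OVX-AS-IV-High. These groups were set side by side as pairs on that ground alone. The values were 0.200, -0.161 and 0.253 for OVX with Sham, and 0.314, -0.158 and 0.435 for OVX-AS-IV-High with Sham (not paired). Promoters and gene identifiers are from RefSeq, assembly GRCr8; the gene table matched 112 of 125 members, and 0 of the 13 mitochondrial ones.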

Additional observations from a re-analysis of the deposited data

How the results depend on the processing

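The 9, 1 and 4 nuclear members called in OVX vs Sham, OVX-AS-IV-High vs OVX and OVX-AS-IV-High vs Sham became 15 (13 higher, 2 lower), 4 (all lower) and 6 (2 higher, 4 lower) with limma on log2(FPKM + 1), where the shares of all genes higher and lower were 10.0% and 7.11%, 3.18% and 3.57%, and 8.37% and 9.12%; they were 15 and 2 in the first comparisons with log2(FPKM + 0.1). With the muscle covariate the second count was 2 (1 higher, 1 lower), beside 6.60% and 5.05% of all genes. Without the 3 libraries highest in muscle markers, 1 Sham library is left, so no count of members called is given, only the median log2FC of nuclear members. Calls of single genes in that fit, given in the sections above, carry the same limit. This median was 0.08 for the first comparison and -0.02 for the third. With the replicate number as a block the counts were 10 (8 higher), 1 (lower) and 8 (6 lower). The shares of all genes beside them were 10.7% and 11.1%, 4.96% and 2.80%, and 10.6% and 11.3%. Leaving out each library gave 1 to 17, 0 to 2 and 1 to 11, and median log2FC values of 0.01 to 0.08, -0.09 to -0.03 and -0.06 to 0.03. At the lower fold cut of 0.58, added late, 2, 0 and 2 passed, against 0, 0 and 1 at the cut of 1.

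For mitochondrial-genome genes, 0, 0 and 0 were called in edgeR (0, 1 and 0 in DESeq2). In OVX-AS-IV-High vs OVX, 1 was called with DESeq2, without a filter, with only the groups compared, with the replicate block and with the block in those groups alone (ND4L in each), and 3 with the muscle covariate. In OVX-AS-IV-High vs Sham, 2 were called with the covariate, and the median was 0.17. Without the 3 muscle-rich libraries, 3 were called in OVX vs Sham (median 0.38) and 6 in OVX-AS-IV-High vs Sham (median 0.44). Leaving out each library gave 0 to 11, 0 to 1 and 0 to 9 called, and medians of -0.73 to -0.14, 0.07 to 0.29 and -0.58 to -0.00. The cause was not tested.

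The mean mitochondrial share of counts, 5.08%, was 4.71% to 5.27% without single libraries and 8.93% of summed FPKM, where the short mitochondrial genes weigh more.

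Over 71 named genes, 3841 of 4118 values under an alternative kept their call or lack of one, 121 were newly called, 148 were called no longer, and 8 were called against the sign seen with all libraries. Uncalled values also changed sign in places, as Cox6a2 and Cox8b did with the muscle covariate. All 8 arose without the 3 muscle-rich libraries, where Sham has 1 library, assumed to vary like the other groups. In OVX vs Sham they are ATP8 (0.64), ND2 (0.49) and Hk3 (0.41), and in OVX-AS-IV-High vs Sham ATP6 (0.39), ATP8 (0.79), COX3 (0.44), ND2 (0.68) and ND4 (0.51). The cause was not tested.

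With 3 libraries per group, the size of the mitochondrial medians depends on which Sham libraries are kept, and RNA of muscle differs between libraries within each group. Levels are of RNA in whole bone and show neither protein nor respiration. Genes with few counts (Cox7a1, copies with LOC identifiers) carry large counting error, and an uncalled difference is not a measured absence of one.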
